A study of Mus musculus with 2 samples.

Results

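The 42 genes described here encode the proteins that load and run the DNA replication fork. They were taken as a fixed list of symbols, matched through their Ensembl identifiers in both deposited gene tables, and fall into 6 groups by role. All 42 were found among 69691 listed entries, 21461 of them nuclear protein-coding genes. The cells were G1E-ER4, an immortalized mouse erythroid line of strain C57BL/6J, male by its labels. It derives from G1E cells, which lack Gata1, and carries a restored GATA1 that works only when estradiol is present. Both cultures are thus of 1 line and share the Gata1 loss and the restored factor. Both cultures received 10 nM 17β-estradiol for 24 h, which starts red cell maturation, and the labels give them as biological replicates 1 and 2 of total RNA. There is 1 group and no untreated group, so nothing here measures a change with estradiol. Values are given for each library or as mean ± SD (n = 2), with no p-value.

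Before S phase the origin recognition complex (ORC), CDC6 and CDT1 load the ring-shaped MCM2-7 helicase onto DNA, a step called licensing, and geminin blocks CDT1 until the next division. In S phase CDC45 and the GINS complex join MCM2-7 to form the active helicase. Polymerase α with primase then starts each strand, the RFC loader places the PCNA clamp, and polymerases δ and ε extend. The protein RPA covers single-stranded DNA, while FEN1, DNA2 and ligase I finish Okazaki fragments. Early erythroid cells divide while they mature, and the S phase of committed erythroid progenitors is known to be tied to their maturation.

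Replicate 1 held 50277914 expected counts, 14373925 of them on nuclear protein-coding genes. Replicate 2 held 47478888, with 13901316 on those genes. Expected counts are the authors' estimates of reads per gene, and TPM is their level per transcript length, scaled to a fixed total. Features other than nuclear protein-coding genes took most of that total, so a TPM over nuclear protein-coding genes alone would be 4.41 and 4.37 times higher. The erythroid label was checked against 14 markers: 13 were matched, and all 13 were detected, from 3.21 ± 0.156 TPM for Slc4a1 to 1001 ± 10.3 TPM for the adult beta-globin gene Hbb-bs. Of 31 markers of 4 other blood cell types, 6 were detected, and 12 had no count in either library. Those detected were led by the mast cell gene Cpa3 (27.4 ± 0.912 TPM) and the platelet gene Pf4 (14.8 ± 5.95 TPM). Summed markers of granulocytes and macrophages stood at 1.33 TPM in replicate 1 and 5.43 TPM in replicate 2, with Csf1r and S100a8 at 0 in both. Cd68 (0.9 and 2.08 TPM), Mpo (0.06 and 1.29 TPM), Ly6c2 (0 and 0.75 TPM) and Elane (0 and 0.68 TPM) were higher in replicate 2. So were Ctsg, S100a9 and Itgam, while Prtn3 was lower there (0.36 and 0.21 TPM). The part of these markers in the differences between libraries was not tested.

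All 42 replication genes were detected, meaning a TPM of 1 or more in both libraries, against 40.2% of the 21461 nuclear protein-coding genes. Their median was 24.2 TPM in replicate 1 and 24.6 TPM in replicate 2 (24.4 ± 0.325), against 9.64 and 9.88 TPM over the 8620 detected nuclear protein-coding genes (9.76 ± 0.170). Of the 42, 37 lay above that median, 26 at or above the 75th percentile of detected genes and 10 at or above the 90th. Together they took 0.660% and 0.681% of nuclear protein-coding TPM. In RNA from whole cultures, the share of cells in S phase and the RNA of these genes per cell cannot be told apart. Group medians were 54.4 ± 0.537 TPM for the MCM genes, 31.6 ± 1.0 TPM for the clamp and its loader, 23.6 ± 0.792 TPM for the polymerases and 23.4 ± 0.0212 TPM for ORC and licensing. RPA with Okazaki processing (12.9 ± 2.39 TPM) and CDC45 with GINS (11.4 ± 1.32 TPM) stood lowest. In the order of all 42 by mean, 11 of 41 neighbouring pairs kept apart, with both libraries of one gene above both of the next. The other 30 overlapped, so ranks in the middle of the order are not resolved.

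**Figure D1:**
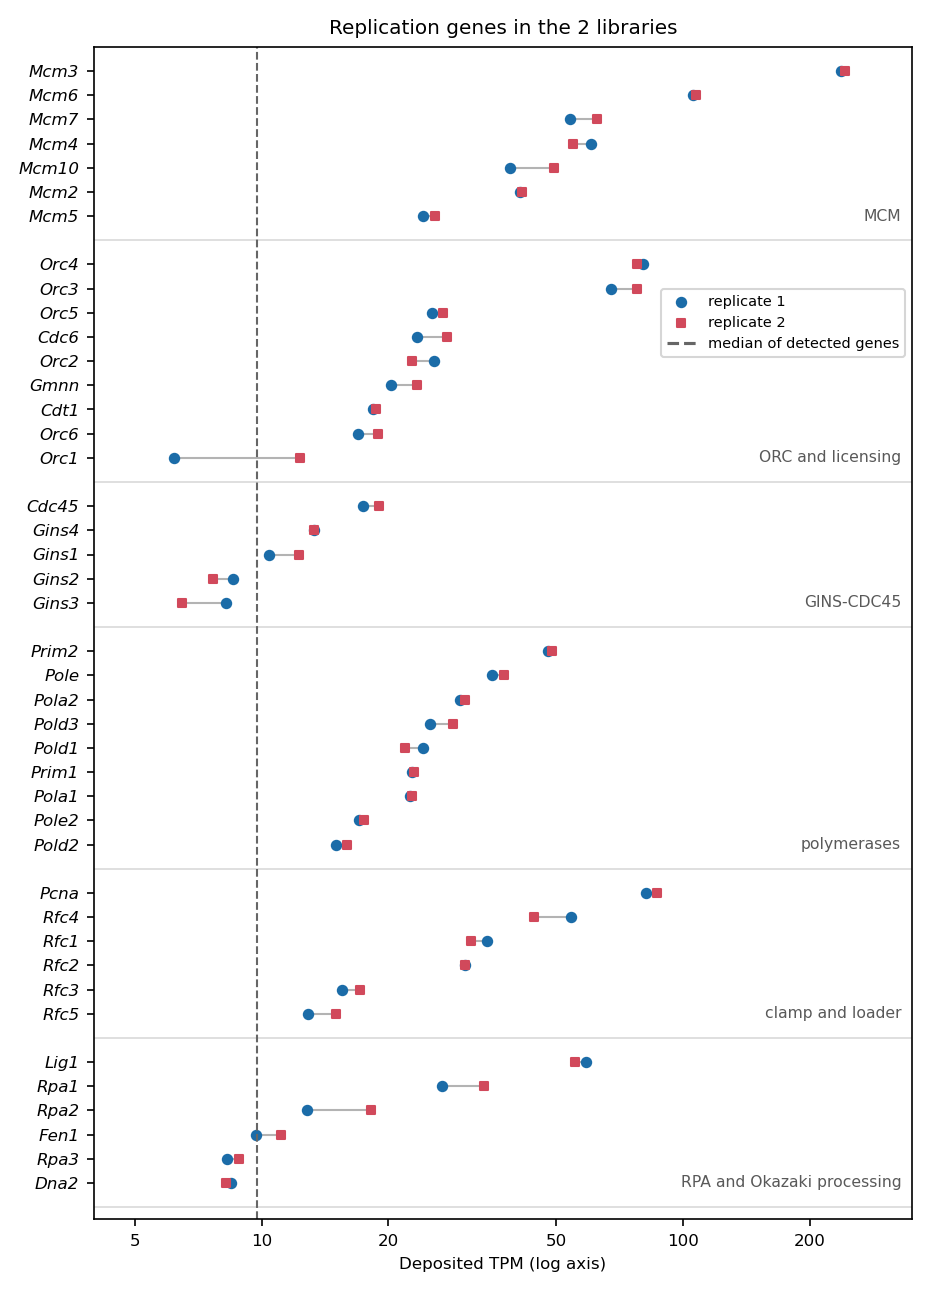
Deposited TPM (log axis) of each replication gene in replicate 1 (circles) and replicate 2 (squares), grouped by role, with a dashed line at the median of detected nuclear protein-coding genes (9.76 TPM). Mcm3 lies highest at 237 and 243 TPM, Gins3 has the lowest mean, and Orc1 shows the widest gap between libraries on the log axis.

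The MCM genes held both of the highest levels on the list. Mcm3, a subunit of the MCM2-7 ring (ENSMUSG00000041859.10, mm10 chromosome 1, 20802968 to 20820312, minus strand), stood at 237 and 243 TPM in replicates 1 and 2. Mcm6, its partner in the ring, stood at 106 and 108 TPM, and Mcm7, a subunit at the core of the ring, at 54.0 and 62.6 TPM. The libraries of Mcm3 and Mcm6 did not overlap with each other or with any other gene here. Mcm4, whose protein is a main target of the DDK kinase at origins, stood at 60.6 and 54.8 TPM. Mcm2, which also binds histones, stood at 41.1 and 41.5 TPM, and Mcm5, at the gate through which the ring opens, at 24.2 and 25.9 TPM. Mcm10, which is no part of the ring and helps to switch on the loaded helicase, stood at 38.8 and 49.5 TPM. The 6 ring subunits occur once each in the protein complex, and their TPM spanned a ratio of 9.61 ± 0.30 from Mcm3 to Mcm5.

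The height of Mcm3 on the TPM scale rested in part on how its reads were shared among transcripts. Mcm3 and Mcm6 had similar expected counts, 9323 and 9513 for Mcm3 and 9385 and 8805 for Mcm6. The leading Mcm3 transcript by TPM was Mcm3-205, of 607 nt, annotated as a retained intron, with 58.3% and 55.7% of the gene's TPM from 2225 and 2057 counts. The full-length coding transcript Mcm3-201, of 3031 nt, had 4603 and 5171 counts but only 47.9 and 56.7 TPM. Of the 607 bases of Mcm3-205, 581 lie in exons of Mcm3-201 (its positions 2254 to 2834), and just 26 are intronic. Counts that the deposited estimate places on so short a transcript weigh more per length than the same counts on Mcm3-201. Reads inside the 581 shared bases fit both, and the tables do not show how many crossed the boundary.

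Another 4 genes, Rfc4, Gins2, Rpa1 and Rfc3, were also led by a transcript annotated as a retained intron. Windows at the exon-intron boundary of these transcripts are given here, from the GENCODE M21 transcripts on mm10. All are on the minus strand and written 5′ to 3′, and they do not show every difference from the coding transcripts. Capitals mark exon bases of the coding transcript, all of them protein-coding, and lower case marks its intron. Mcm3-205 (chr1:20804868-20804933), Rfc4-205 (chr16:23114693-23114744) and Gins2-204 (chr8:120586153-120586208) begin inside an intron, so the window shows an intron end and the next exon. Rpa1-205 (chr11:75316065-75316144) and Rfc3-205 (chr5:151644573-151644652) end inside one, so the window shows an exon end and the start of the intron.
Mcm3-205: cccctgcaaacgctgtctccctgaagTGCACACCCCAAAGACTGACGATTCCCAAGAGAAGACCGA
Rfc4-205: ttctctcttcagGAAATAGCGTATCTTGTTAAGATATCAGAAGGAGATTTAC
Gins2-204: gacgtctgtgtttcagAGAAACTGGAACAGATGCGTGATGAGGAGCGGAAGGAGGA
Rpa1-205: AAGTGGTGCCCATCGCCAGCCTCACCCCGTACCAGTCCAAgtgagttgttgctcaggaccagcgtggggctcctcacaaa
Rfc3-205: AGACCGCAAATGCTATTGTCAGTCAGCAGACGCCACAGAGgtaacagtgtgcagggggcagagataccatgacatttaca
The 3 intron ends close with ag and the 2 intron starts open with gt, the usual letters of splice sites. The intronic part was 12 of 449 bases in Rfc4-205, 16 of 511 in Gins2-204, 65 of 716 in Rpa1-205 and 197 of 1062 in Rfc3-205. For Rpa1-205 and Rfc3-205 the window holds only some of it. Rpa1-205 has 651 bases in exons of Rpa1-201, between its positions 16 and 729, so it also lacks some exon bases in that stretch.

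Among ORC and licensing genes, Orc4 and Orc3 stood above the rest on whole-gene TPM. Orc4, an ATPase-fold subunit of ORC, stood at 80.4 and 77.7 TPM, and Orc3, another subunit, at 67.4 and 77.9 TPM. These overlapped each other, and both lay above every other gene of the group in both libraries. On complete coding transcripts Orc3 was still the highest of ORC (28.7 and 28.8 TPM), while Orc4 (10.4 and 12.3 TPM) lay below Orc2, Orc5 and Orc6. Orc5 stood at 25.4 and 27.0 TPM, Orc2 at 25.6 and 22.7 TPM and Orc6, the subunit least tightly bound to the others in mammals, at 17.0 and 18.9 TPM. Orc1, the ATPase that completes ORC in G1 and is then degraded in human cells, was lowest (ENSMUSG00000028587.14, chromosome 4, 108579423 to 108614833, plus strand). It stood at 6.19 and 12.3 TPM, the widest gap between libraries, as a ratio, of any gene here.

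The loading factors lay close together. Cdc6, the ATPase that joins ORC to load MCM2-7, stood at 23.4 and 27.6 TPM. Cdt1, which brings MCM2-7 to the origin, stood at 18.4 and 18.7 TPM, and Gmnn, which encodes its inhibitor geminin, at 20.3 and 23.4 TPM. The TPM ratio of Cdt1 over Gmnn was 0.854 ± 0.0758, and both libraries of Gmnn lay above both of Cdt1. That order turned round on complete coding transcripts, on which Cdt1 stood at 18.4 and 18.7 TPM and Gmnn at 11.9 and 16.9 TPM. A short transcript annotated for nonsense-mediated decay, Gmnn-205 of 387 nt, held 41.0% and 24.1% of the Gmnn TPM.

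The genes that turn the loaded ring into a moving helicase formed the group with the lowest median, close to that of RPA and Okazaki processing. Cdc45, the partner that locks MCM2-7 together with GINS, stood at 17.4 and 19.0 TPM. Of the 4 GINS subunits, Gins4 stood at 13.3 and 13.3 TPM and Gins1 at 10.4 and 12.3 TPM. Gins2 stood at 8.57 and 7.69 TPM and Gins3 at 8.24 and 6.49 TPM, and these libraries overlapped. Gins4 lay above the other GINS genes in both libraries, by a ratio of 1.83 ± 0.307 over Gins3. The leading Gins2 transcript was the retained-intron Gins2-204, with 62.8% and 64.5% of its TPM, while the coding Gins2-201 of 3900 nt stood at 1.64 and 2.52 TPM. Gins2 also shares 2758 exon bases, 67.3% of its own, with Gse1 on the opposite strand. Gse1 had 2408 and 2162 counts against 292 and 361 for Gins2, and the labels and files used here do not state whether counting used strand.

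The 9 polymerase genes lay between Pold2 and Prim2 on the TPM scale. Prim2, the large primase subunit, was highest at 47.9 and 49.0 TPM, and Prim1, which makes the RNA primer, stood at 22.8 and 23.0 TPM. Pola1, the catalytic subunit of polymerase α, stood at 22.6 and 22.8 TPM and its partner Pola2 at 29.6 and 30.4 TPM. Prim1 and Pola1 overlapped, whereas Prim2 and Pola2 were each apart from all others of this complex. For the leading-strand polymerase ε, Pole, the catalytic subunit, stood at 35.2 and 37.6 TPM and Pole2 at 17.1 and 17.5 TPM. For the lagging-strand polymerase δ, Pold3 stood at 25.1 and 28.5 TPM, the catalytic Pold1 at 24.2 and 21.9 TPM and Pold2 at 15.02 and 15.9 TPM. Pold1 was spread over many transcripts: the coding Pold1-201 held 15.4% and 22.4% of its TPM, and complete coding transcripts amounted to 3.73 and 4.90 TPM. On these transcripts Pold2, at 13.2 and 10.9 TPM, lay above Pold1 in both libraries, the reverse of the order on whole-gene TPM.

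Pcna, the clamp that holds the polymerases to DNA (ENSMUSG00000027342.10, chromosome 2, 132249162 to 132253314, minus strand), stood at 81.9 and 86.9 TPM with 3507 and 3593 counts. The processed pseudogene Pcna-ps2 on chromosome 19 matches it at 99.2% identity over 781 bases and was listed at 19.6 and 18.5 TPM (734 and 659 counts). Reads of one copy cannot all be told from those of the other, so counts of either may belong to the other and the Pcna level is uncertain. Among the loader genes, Rfc4 stood at 54.2 and 44.3 TPM, Rfc1, the large subunit, at 34.2 and 31.4 TPM and Rfc2 at 30.4 and 30.4 TPM. Rfc3 stood at 15.5 and 17.1 TPM and Rfc5 at 12.9 and 15.1 TPM. Rfc4 was highest and Rfc5 lowest in both libraries, with a ratio of 3.58 ± 0.896. Much of the Rfc4 level lay on the retained-intron Rfc4-205, which held 48.7% and 40.02% of its TPM. On complete coding transcripts Rfc2 (30.4 and 30.4 TPM) lay above Rfc4 (27.1 and 25.7 TPM), and Rfc3 was lowest (3.4 and 4.39 TPM). The retained-intron Rfc3-205 led Rfc3 on average, with 49.5% and 32.5%, although in replicate 2 Rfc3-207 lay above it (13.4% and 33.0%).

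RPA and the enzymes of Okazaki fragments ranged widely. Rpa1, the large DNA-binding subunit of RPA, stood at 26.9 and 33.8 TPM, Rpa2, which is phosphorylated under replication stress, at 12.8 and 18.1 TPM and Rpa3 at 8.27 and 8.83 TPM. These did not overlap, and the order Rpa1, Rpa2, Rpa3 was the same in both libraries. Fen1, the flap nuclease, stood at 9.71 and 11.1 TPM and Dna2, a nuclease-helicase for long flaps, at 8.47 and 8.22 TPM. Lig1, which seals the nick, stood at 59.1 and 55.5 TPM (ENSMUSG00000056394.13, chromosome 7, 13277283 to 13311433, plus strand).

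Little of the Lig1 TPM belonged to a complete coding transcript. Complete coding transcripts of Lig1 amounted to 3.83 and 1.42 TPM, or 6.48% and 2.56% of the gene. The leading transcript on average, Lig1-212 of 1053 nt, is annotated as coding with an end missing and held 34.8% and 54.2%, and another such, Lig1-206 of 944 nt, held 36.0% and 11.4%. Lig1-207, a transcript of 2968 nt with no annotated reading frame, had 125 and 893 counts. The gene total hardly differed, 2627 and 2424 counts, so the libraries differed in how the same number of counts was placed. The TPM ratio of Fen1 over Lig1 was 0.182 ± 0.0254 on whole genes, whereas Fen1 was the higher on complete coding transcripts (9.70 and 11.1 TPM).

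Across the list, 34 genes had 2 or more listed transcripts and 8 (Mcm2, Mcm4, Mcm5, Cdt1, Gins3, Gins4, Rfc2 and Pole2) had 1. In 13 of the 34 (38.2%) the leading transcript held under 50% of the gene's TPM, against 37.5% of the 6477 detected nuclear protein-coding genes with 2 or more, so this is near the background. In 6 of the 34 (17.6%) the leader was annotated as not coding, against 14.3%. In 5 of them it was a retained intron (Mcm3, Rfc4, Rpa1, Rfc3 and Gins2), against 7.57%, and in the sixth, Orc4, a processed transcript, Orc4-205, with 22.6% and 25.9%. The leader of Rfc1 on average, with 33.3% and 25.2%, is a 485-nt transcript that is not in GENCODE M21, so its class was not assigned here. By counts in place of TPM, the leader was not coding in 1 of the 34 (2.94%), Rfc3, against 8.45% of the background. Complete coding transcripts held under 50% of TPM in 12 of the 34 (35.3%), against 27.6% of the background. By counts they held under 50% in 5 of the 34 (14.7%), against 13.0%. The 12 include Rfc1, most of whose TPM lay on transcripts with no class assigned. The median share on retained-intron transcripts was 15.8% over the 34 and 4.34% over the 6477.

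Beside Rfc4, Rfc3, Orc4 and Rfc1, the genes led by a transcript under 50% were Mcm7, Orc3, Pole, Cdc6, Mcm10, Pold1, Pold3, Dna2 and Lig1. Mcm7-201 held 51.1% and 45.6% of the Mcm7 TPM. Orc3-201, the coding leader of Orc3, held 42.6% and 36.9%, and the processed transcript Orc3-204 held 24.6% and 20.4%. Pole-201 held 34.6% and 34.1%, Cdc6-202 44.3% and 33.9% and Mcm10-201 31.7% and 23.6%. Pold3-201 held 43.1% and 34.3% and Dna2-203 44.0% and 43.5%. Except for Orc3-204, those named here are complete coding transcripts, and each led with under 50% of the TPM on average. In 5 of the 34 (Cdc6, Rfc1, Pold1, Rfc3 and Lig1) the leader was not the same transcript in both libraries, against 22.5% of the background. Summed over complete coding transcripts, the median of the 42 genes was 17.6 ± 0.760 TPM, and the highest were Mcm6 (94.7 and 94.4 TPM), Pcna (71.5 and 76.9 TPM) and Mcm4 (60.6 and 54.8 TPM).

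**Figure D2:**
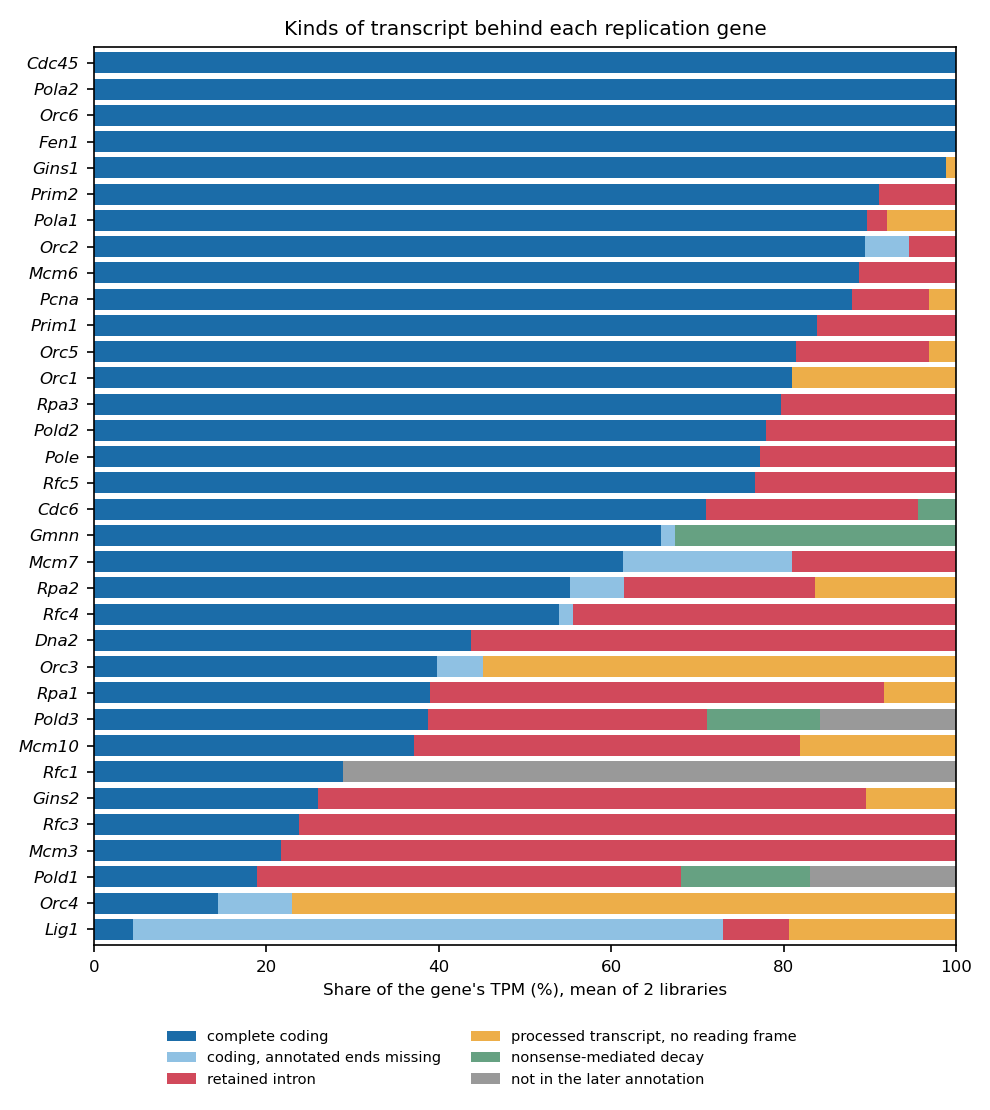
Share of each gene's TPM (%, mean of both libraries) by annotated kind of transcript, for the 34 genes with 2 or more listed transcripts, ordered by the share of complete coding transcripts. Mcm3, Rfc3, Gins2, Dna2 (56.3%) and Rpa1 (52.6%) are mostly retained-intron transcripts, and Orc4 and Orc3 (54.9%) mostly processed transcripts. Lig1 is mostly coding transcripts with a missing end, and Rfc1 mostly transcripts not in the later annotation.

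Subunits of 1 complex were then set side by side in 8 complexes. On whole-gene TPM the highest subunit was 2-fold or more above the lowest in 6 of 8. The ratio was 9.64 ± 4.74 for Orc4 over Orc1, where the libraries gave 12.99 and 6.29, 3.53 ± 0.407 for Rpa1 over Rpa3, and 2.13 ± 0.0158 for Prim2 over Pola1. It was 2.11 ± 0.0633 for Pole over Pole2 and 1.73 ± 0.0828 for Pold3 over Pold2. On complete coding transcripts the MCM2-7 order became Mcm6, Mcm4, Mcm3, Mcm2, Mcm7, Mcm5, with a ratio of 3.78 ± 0.192 from the highest to the lowest. The lowest subunit of MCM2-7 was Mcm5, and that of ORC was Orc1, on this measure as well as on whole-gene TPM and on expected counts per kilobase of the longest complete coding transcript. On the last measure Mcm3 was again the highest of the ring, at 3076 and 3139 counts per kilobase, against 769 and 782 for Mcm5. Mcm6 stood at 2155 and 2022, but its divisor was Mcm6-203 of 4355 nt, with 1570 and 1218 counts. Most Mcm6 counts (7682 and 7444) lay on Mcm6-201 of 2910 nt, so the lead of Mcm3 over Mcm6 there depended on the length used. Prim2 led polymerase α-primase on all 3 measures, and Rpa1, Rpa2 and Rpa3 kept that order of means. The leading subunit of MCM2-7, ORC, RFC and polymerase δ depended on the measure. With highest and lowest chosen anew on each measure, 6 of 8 complexes were 2-fold or more apart on complete coding transcripts and 5 of 8 on counts per kilobase. The divisor of Rpa1 there was Rpa1-202 of 5077 nt (447 and 567 counts), while Rpa1-201 of 2942 nt had 873 and 657 counts. The RPA ratio, and with it the count of 5, thus also depended on the length used. Both measures by transcript were added after the data had been seen.

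**Figure D3:**
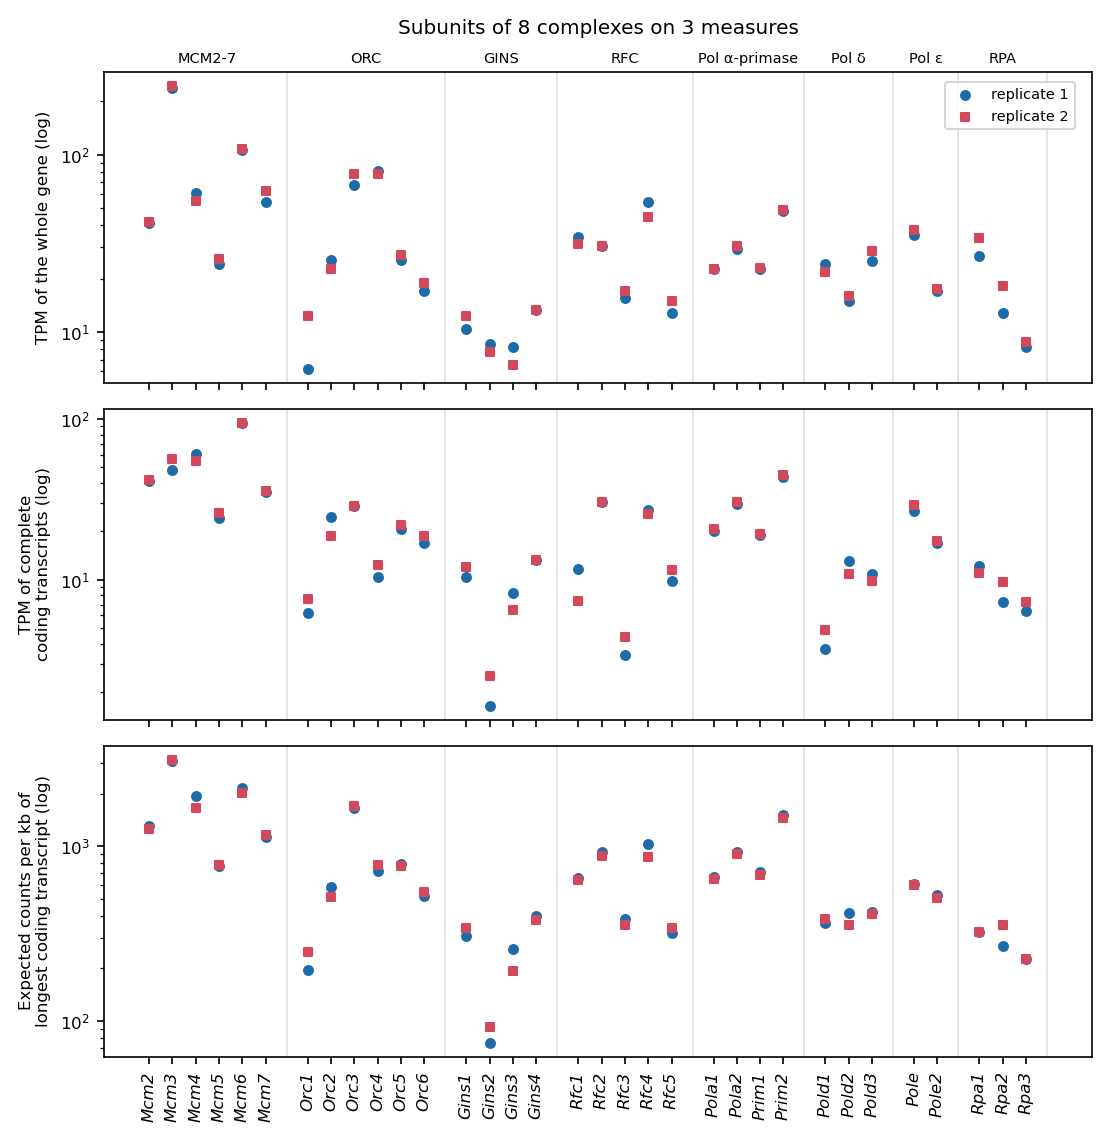
Subunits of 8 complexes in replicate 1 (circles) and replicate 2 (squares) as whole-gene TPM (top), TPM of complete coding transcripts (middle) and expected counts per kilobase of the longest complete coding transcript (bottom), all on log axes. Mcm3 stands out on the top panel and sits among the other MCM genes in the middle, at 47.9 and 56.7 TPM. On the bottom panel it is the highest of the ring, with Mcm6 divided by its longest coding transcript, of 4355 nt.

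Fixed pairs of genes with linked roles were compared in the same way, and in all 15 both libraries of one gene lay above both of the other on TPM. The numerator was the higher in 9 of 15. Pcna was 8.13 ± 0.432 times Fen1, which it recruits to flaps, and 2.58 ± 0.268 times Rfc1, which loads it. On complete coding transcripts Pcna over Rfc1 was 8.28 ± 3.09, and on expected counts not divided by length it was 1.16 ± 0.0411. Orc1 was 0.393 ± 0.213 times Orc2 and Mcm2 was 0.712 ± 0.0694 times Mcm7. Cdc6 was 1.37 ± 0.143 times Cdt1 and Mcm10 was 2.42 ± 0.27 times Cdc45. Pola1 was 0.757 ± 0.00857 times Pola2, Prim1 was 0.473 ± 0.00339 times Prim2 and Pold1 was 1.49 ± 0.165 times Pold2. Fen1 was 1.15 and 1.35 times Dna2, and on average 2.86 times Dna2 on complete coding transcripts. Of the 15 pairs, 9 kept their direction on complete coding transcripts. In 5 it was turned round in both libraries, Cdt1 over Gmnn, Mcm2 over Mcm7, Mcm10 over Cdc45, Pold1 over Pold2 and Fen1 over Lig1. For Cdc6 over Cdt1 the libraries disagreed there (0.939 and 1.004), so no order was resolved. Among the 9 is Pole over Pole2, where the sum for Pole includes the short Pole-202 (1523 nt) and Pole-203 (747 nt). Pole-201 alone, of 7163 nt, stood at 12.2 and 12.85 TPM, below Pole2-201 at 17.1 and 17.5 TPM. Orc1 over Orc2 differed most between libraries, with 0.242 in replicate 1 and 0.543 in replicate 2.

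Differences between the libraries were small for most of these genes, as for most detected genes. The median absolute log2 ratio of TPM with 0.1 added was 0.124, against 0.157 over detected genes, which were not matched for level. None of the 42 was 2-fold or more apart in TPM with 0.1 added, against 1.95% of 8808 nuclear protein-coding genes whose mean reached 1 TPM. Orc1 came closest, with a log2 ratio of 0.98 for replicate 2 over replicate 1. At a gap of 25% or more, 5 of 42 were apart (Orc1, Rpa2, Mcm10, Rpa1 and Gins3), against 23.7% of the background. The ratio of counts per depth lay beyond counting error in 17 of 42, against 45.2% of detected genes. Here counting error is an exact 95% binomial interval, which treats reads as independent molecules. The authors' own TPM intervals did not overlap in 9 of 42, against 24.1%. On TPM 30 of 42 were higher in replicate 2, against 54.8% of detected genes. On counts per depth 27 were, and the share of detected genes on that scale was not computed. The median log2 ratio of counts per depth was 0.017 over the 42 and -0.0023 over detected genes.

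Part of the difference in TPM came with a change in effective length, the length over which a gene's reads can start given its estimated transcripts. It differed by 10% or more between libraries in 11 of 42, against 25.1% of detected genes. Orc1 had 591 and 751 counts, a ratio per depth of 1.31 (95% interval 1.17 to 1.46). Its effective length was 2895 and 1941 nt, since in replicate 2 Orc1-201 held 61.9% of TPM and short processed transcripts held the rest, led by Orc1-203 with 0 and 52.8 counts. Gins2 went the other way on the 2 scales: its counts per depth had a ratio of 1.27 (1.09 to 1.49), but its TPM was lower in replicate 2. Rpa2 and Gins3 differed with nearly equal lengths. Rpa2 had 488 and 644 counts (ratio 1.36, 1.21 to 1.53) and Gins3 had 623 and 466 counts (ratio 0.771, 0.683 to 0.871). With 1 library per culture, a difference between cultures and one between preparations cannot be told apart.

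**Figure D4:**
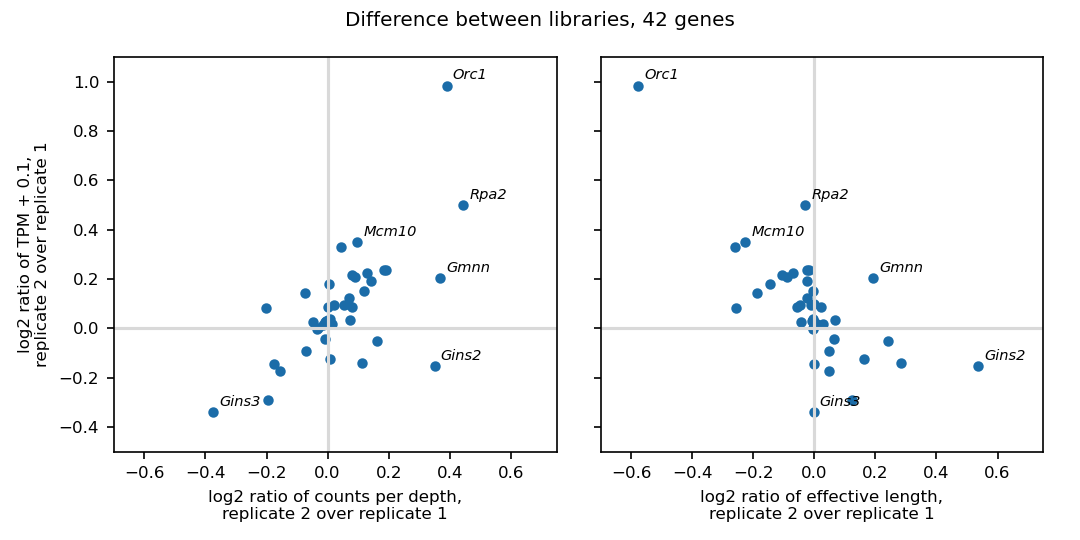
Log2 ratio of TPM (with 0.1 added), replicate 2 over replicate 1, of each of the 42 genes, against the log2 ratio of counts per depth (left) and of effective length (right). Orc1, at a log2 TPM ratio of 0.98, has the most negative length ratio (-0.58), and Gins2 the most positive (0.54).

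The E2F factors and their repressor partners are known to control many replication genes in S phase. Promoter windows of 300 bases (250 before to 50 after the start, RefSeq, GRCm38.p6) were given for 34 of the 42 genes. E2F motifs were searched as TTTGGCGC, TTTGCCGC, TTTCGCGC and TTTCCCGC on both strands, with overlapping matches counted apart and each gene once. They were found in 15 of 34 genes (44.1%), against 5.49% of 6936 detected nuclear protein-coding genes and 2.60% of all 27025 genes in the promoter table. In the 250 bases before the start alone they were found in 9 of 34 (26.5%), against 4.54% of detected and 2.16% of all genes. The 15 with a match in the whole window were Mcm3, Mcm5, Mcm6, Mcm7, Orc1, Orc3, Cdc6, Cdt1, Gins3, Pola1, Pold1, Pold3, Pole2, Rfc3 and Lig1. Of 54 other replication genes with a window, 12 held one (22.2%). Matches lying wholly before the RefSeq start and outside annotated exons are shown for genes of 3 roles, the helicase (Mcm6 and Mcm5), licensing (Cdc6) and a polymerase (Pola1), with every match in capitals, 5′ to 3′ along the gene's strand.
Mcm6 (chr1:128359725-128359835, minus): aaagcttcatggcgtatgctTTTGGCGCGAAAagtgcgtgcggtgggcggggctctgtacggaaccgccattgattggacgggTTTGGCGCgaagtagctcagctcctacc
Mcm5 (chr8:75109336-75109387, plus): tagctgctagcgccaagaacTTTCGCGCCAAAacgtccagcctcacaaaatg
Cdc6 (chr11:98907993-98908040, plus): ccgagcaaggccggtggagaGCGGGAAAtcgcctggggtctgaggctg
Pola1 (chrX:93632266-93632313, minus): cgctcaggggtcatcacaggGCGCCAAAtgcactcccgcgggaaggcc
In Mcm6 and Mcm5 a pair of matches overlaps within 12 bases, 1 on each strand, and Mcm6 holds another match nearer its start. The high Mcm6 (107 ± 1.29 TPM) and the low Mcm5 (25.02 ± 1.21 TPM) thus both carry the motif, and Mcm2, with a window and 41.3 ± 0.311 TPM, does not. The letters alone do not show binding.

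The other motifs were closer to the background of detected genes. CCAAT, the NF-Y motif, was found in 21 of 34 (61.8%), against 44.6% of detected and 41.1% of all genes. GGGCGG, the GC box of SP and KLF factors, was found in 25 of 34 (73.5%), against 71.8% of detected and 38.2% of all genes. TTTGAA, the CHR element of late cell cycle genes, was found in 5 of 34 (14.7%), against 14.3% and 20.2%. The GATA letters AGATAA or TGATAA were found in 4 of 34 (11.8%; Cdc45, Fen1, Orc2 and Pold2), against 11.7% and 21.0%.

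**Figure D5:**
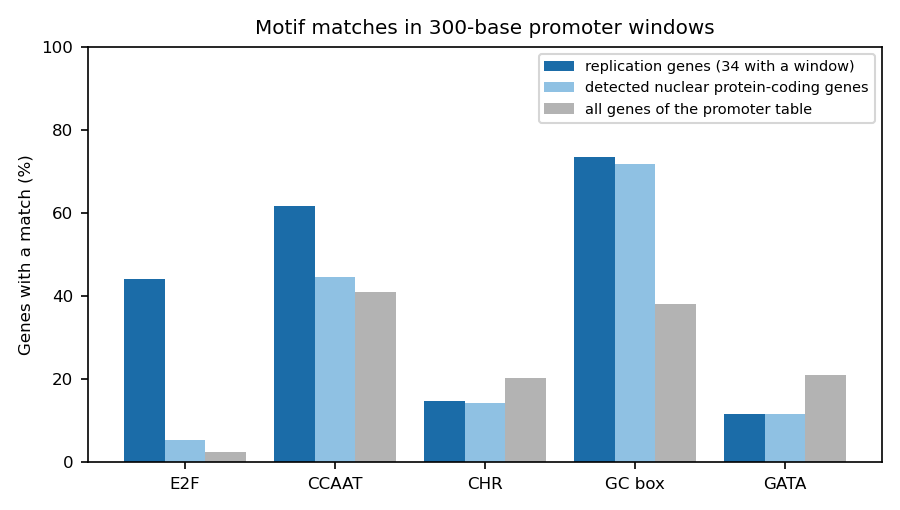
Percent of genes with at least 1 match to each motif in a 300-base RefSeq promoter window, for the replication genes, detected nuclear protein-coding genes and all genes of the promoter table. E2F letters stand at 44.1% of replication genes, against 5.49% of detected and 2.60% of all genes.

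Another gene starts head to head, on the opposite strand within 1000 bases, for 14 of the 42, against 19.3% of detected genes. For 7 of them it is protein-coding, against 13.2%. Orc3 starts 13 bases from Rars2, a mitochondrial arginyl-tRNA synthetase gene at 17.2 and 12.5 TPM, and Orc1 starts 87 bases from the splicing factor gene Prpf38a at 20.5 and 17.5 TPM. Rpa1 faces Smyd4 (2.33 and 2.70 TPM) at 109 bases, Rpa3 faces Umad1 (17.5 and 23.5 TPM) at 115 bases and Pole faces Pxmp2 (5.05 and 5.02 TPM) at 120 bases. Mcm4 faces Prkdc, the DNA repair kinase gene (8.53 and 8.75 TPM), at 466 bases, and Gins1 faces Abhd12 (3.59 and 5.26 TPM) at 659 bases. Prpf38a lay above Orc1, and Umad1 above Rpa3, in both libraries, while the other 5 coding neighbours lay below the replication gene they face.

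The remaining head-to-head genes were non-coding or without values here. Orc5 faces 6030443J06Rik at 3 bases (0.810 and 1.28 TPM), Prim2 faces 1700001G17Rik at 29 bases (1.78 and 0.980 TPM) and Orc2 faces Gm15834 at 39 bases (1.56 and 1.95 TPM). Pcna faces AV099323 at 43 bases (1.02 and 1.04 TPM) and Gins2 faces Gm10614 at 227 bases (0.10 and 0.050 TPM). Gm15728, 92 bases from Rfc5, was listed at 0. The partners 6330408M09Rik, 56 bases from Rfc4, and Gm45062, 277 bases from Rpa3, were not analysed here. Those with values were all lower than the replication gene they face.

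Exons of 16 of the 42 genes overlap those of 21 other annotated genes, 16 of these on the opposite strand. The share over all detected genes was not computed, so whether this count is usual is not known. Beside Gse1, the longest overlaps were Gm10143 with Fen1 (1909 bases; 12 and 24 counts), Nif3l1 with Orc2 (1150 bases; 423 and 474 counts), and Lat2 with Rfc2 (952 bases; 0 and 1 counts). Wsb2 shares 499 bases with Rfc5 (484 and 406 counts) and Eif4a2, a translation initiation helicase gene, shares 194 with Rfc4 (5904 and 6070.0 counts). Vps35 shares 171 with Orc6 (7158 and 6652 counts) and Ufd1 shares 209 with Cdc45 (747 and 632 counts). Acvr2a (446 bases; 134 and 116 counts) and Mbd5 (136 bases; 706 and 598 counts) overlap Orc4.

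Zswim9 shares 247 bases with Lig1 (283 and 288 counts) and Tmem258 shares 130 with Fen1 (175 and 181 counts). Mcm7 overlaps Ap4m1 (321 bases; 346 and 320 counts) and Cops6 (64 bases; 1125 and 1063 counts), and it hosts the microRNA genes Mir25 and Mir93, both listed at 0 in libraries labelled with an RNA size above 200. Gm12743 (376 bases, Orc1; 10 and 8 counts) and Gm15421 (90 bases, Orc5; 16.5 and 17.6 counts) were low. Gm15792 (Pole) was listed at 0, and Gm49384 (Pole2) and Gm47300 (Rpa1) were not analysed here. The shares of these overlaps in the values of the members were not tested. Besides Pcna, near-identical copies of 500 bases or more were found for Cdc6, Rfc5 and Mcm7. Gm9430 (3.02 and 2.01 counts, Cdc6) and Gm12870 (3.06 and 1.00 counts, Rfc5) took few counts, and Gm5487 (Mcm7) was not analysed here.

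Of 67 other genes of the pathway in 7 lists, 65 were detected, with a median of 19.9 ± 0.509 TPM beside 24.4 ± 0.325 TPM for the 42. The 2 not detected were Mcm9 (1.13 and 0.85 TPM) and the meiotic Mcmdc2 (0.110 and 0 TPM, from 10 and 0 counts). In the same list Mcmbp, whose protein binds MCM subunits, stood at 30.4 ± 2.73 TPM, and Mcm8 (7.64 ± 1.42 TPM) and Mcm3ap (7.63 ± 0.219 TPM) were lower. Mcm3ap encodes a nuclear mRNA export protein and is not a subunit of the helicase.

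Origin firing needs the kinases CDK and DDK and activators that recruit CDC45 and GINS. Topbp1, such an activator, stood at 102 ± 2.58 TPM, the S-phase cyclin gene Ccna2 at 87.7 ± 0.255 TPM and Rif1, which opposes DDK, at 60.5 ± 0.233 TPM. Lowest in that list of 13 were the DDK subunit Cdc7 (7.84 ± 1.35 TPM), Donson (6.44 ± 0.834 TPM) and Recql4 (1.69 ± 0.148 TPM). Of the 10 genes listed for the turnover of CDT1 and ORC1 proteins, Ddb1 (63.1 ± 2.70 TPM), Skp1a (56.2 ± 5.53 TPM) and Cul1 (54.2 ± 2.61 TPM) were the highest. Usp37 (25.6 ± 1.18 TPM), Cul4b (21.0 ± 1.85 TPM) and Skp2 (12.6 ± 0.311 TPM) were the lowest of those 10.

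Topoisomerases led the list that also holds RNA primer removal, with Top2b at 103 ± 0.608 TPM, Top2a at 91.5 ± 1.34 TPM and Top1 at 37.8 ± 2.46 TPM. The RNase H genes Rnaseh2b (19.9 ± 2.57 TPM), Rnaseh2c (5.27 ± 1.44 TPM) and Rnaseh1 (2.75 ± 0.629 TPM) were lowest there. Among genes that protect forks and signal damage, the FACT histone chaperone genes Ssrp1 (52.1 ± 2.52 TPM) and Supt16 (50.2 ± 1.14 TPM) led, followed by Tipin (29.2 ± 2.09 TPM). Its partner Timeless (9.0 ± 0.198 TPM), the checkpoint clamp gene Rad1 (8.82 ± 2.03 TPM) and Atrip (4.47 ± 0.0990 TPM) were lowest.

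Chromatin behind the fork is rebuilt by histone chaperones and by the maintenance of DNA methylation. Rbbp4 (56.6 ± 5.59 TPM), Uhrf1 (50.2 ± 3.79 TPM) and the methyltransferase gene Dnmt1 (44.0 ± 1.30 TPM) were the highest of those 8. The CAF-1 genes Chaf1b (13.4 ± 0.163 TPM) and Chaf1a (9.38 ± 0.544 TPM) and the chaperone gene Asf1a (4.18 ± 0.403 TPM) were the lowest. Of other genes of polymerases, loaders and their accessory factors, Chtf8 (38.8 ± 2.91 TPM), Atad5, which unloads PCNA (27.8 ± 1.09 TPM), and Ctc1 (21.8 ± 1.36 TPM) stood highest. Chtf18 (5.98 ± 2.21 TPM), Ten1 (5.50 ± 0.537 TPM) and Dscc1 (3.66 ± 0.0424 TPM) stood lowest of those 10. Of the 67, 1 was 2-fold or more apart between libraries, Mcmdc2.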

How the data were processed

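Total RNA of 2 cultures was sequenced to 50277914 and 47478888 expected counts. The deposited gene and transcript tables hold the authors' expected counts, TPM, FPKM and, as a percent of each gene's TPM, the share of every transcript. They also hold the authors' posterior mean TPM and the bounds of a TPM interval, treated here as a score because their level is not stated. Reads were aligned to mm10, per the labels, with GENCODE M4 per the deposited documentation. The tool that estimated counts, the aligner and the strand setting were not given in the sources used here. An estimate that divides reads among transcripts can move TPM without any change in counts.

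Names, classes and coordinates came from GENCODE M21, matched by identifier for 42462 entries. The members, lists and tests were chosen with earlier results of these data known. Genes were called detected at 1 TPM or more in both libraries, and log2 ratios used TPM plus 0.1. Depth was set by edgeR 4.0.16 TMM, with DESeq2 1.42.0 size factors as an alternative, on expected counts rounded to whole numbers over nuclear protein-coding genes with 10 counts or more. Count ratios have exact (Clopper-Pearson) 95% binomial intervals. Intervals cover counting error only. Near-identical copies were sought with BLAST+ 2.17.0. The code ran in R 4.3.3 and Python 3.11.15 with SciPy 1.17.1, NumPy 2.4.6, pandas 2.3.3 and Matplotlib 3.10.9. The depth estimate was tested on simulated counts and the motif search on planted motifs.

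With 1 group, no test between groups was made. Named genes were all 42 members, the 3 highest and 3 lowest genes of each other pathway list, all genes of the fixed pairs, head-to-head neighbours up to 15, genes whose exons overlap a member, and transcripts of members led by a transcript under 50% or not coding. The alternatives tried were other units, pseudocounts, thresholds, filters and windows, and each replicate alone.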

Additional observations from a re-analysis of the deposited data

How the results depend on the processing

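No paired analysis was possible because the labels give 1 group. With 2 libraries an SD is imprecise, and all TPM values depend on how the authors' estimate divided reads among transcripts. Leaving out either library is no check of a mean, since each of 2 values lies within 1 SD by construction: Orc4 over Orc1 was 12.99 in replicate 1 alone and 6.29 in replicate 2 alone. Of the other alternatives, 83 values kept their direction and moved by less than the spread between libraries or, for counts, by less than 1.5 times, and 57 moved. Another 17 reversed in the mean, 14 of them in both libraries, and the causes were not tested except that counts are not divided by length.

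The median of the 42 genes was 24.1 on posterior mean TPM, 107 rescaled over nuclear protein-coding genes, 16.1 as FPKM and 17.6 on complete coding transcripts. The count of genes 2-fold apart between libraries, 0 on TPM, was 5 at a gap of 25% and 1 (Lig1) on complete coding transcripts. The median log2 ratio, 0.06 on TPM, was 0.017 on counts scaled by TMM and 0.018 by DESeq2 size factors. The number of genes led by a transcript under 50% was 8 (23.5%, against 22.2% of the background) by counts and 13 by TPM. Genes with an E2F match numbered 9 (26.5%) in the 250 bases before the start, against 4.54% of detected genes, and 15 (44.1%) in the whole window, against 5.49%.

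On expected counts not divided by length, Mcm3 over Mcm5 was 3.55, Orc4 over Orc1 4.62, Rfc4 over Rfc5 1.32, Pold3 over Pold2 2.02, Pole over Pole2 4.98 and Rpa1 over Rpa3 10.8. Prim2 over Pola1 (0.837), Cdt1 over Gmnn (2.74), Mcm2 over Mcm7 (1.27), Pola1 over Pola2 (1.58) and Fen1 over Dna2 (0.895) reversed in both libraries. Gins4 over Gins3 averaged 0.995, with the libraries on either side of 1 (0.878 and 1.11). On posterior mean TPM, Prim2 over Pola1 was 2.12.

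On complete coding transcripts, an alternative chosen after seeing the data, 3 of the 8 pairs of subunits chosen on TPM were 2-fold apart, against 6 on TPM. With the highest and lowest chosen anew, 6 of 8 complexes were. Mcm3 over Mcm5 was 2.09, Orc4 over Orc1 1.65, Rfc4 over Rfc5 2.49, Prim2 over Pola1 2.17, Pole over Pole2 1.63 and Rpa1 over Rpa3 1.71. The sum for Pole includes short transcripts, and Pole-201 alone (12.2 and 12.85 TPM) lay below Pole2-201 (17.1 and 17.5 TPM). Pold3 over Pold2 (0.860), Cdt1 over Gmnn (1.32), Mcm2 over Mcm7 (1.16), Mcm10 over Cdc45 (0.889), Pold1 over Pold2 (0.367) and Fen1 over Lig1 (5.18) reversed in both libraries. Cdc6 over Cdt1 averaged 0.972, with the libraries on either side of 1 (0.939 and 1.004). On counts per kilobase of the longest complete coding transcript, also chosen after seeing the data, Mcm3 over Mcm5 was 4.01, Orc4 over Orc1 3.43, Prim2 over Pola1 2.27, Pold3 over Pold2 1.08, Pole over Pole2 1.18 and Rpa1 over Rpa3 1.43. There Cdt1 over Gmnn (1.41), Cdc6 over Cdt1 (0.861) and Mcm2 over Mcm7 (1.12) reversed in both libraries, and Pold1 over Pold2 averaged 0.978 (0.873 and 1.08). Cdc6 was divided by the length of Cdc6-201, 4614 nt (1025 and 1328 counts), while Cdc6-202 of 2559 nt had 834 and 715 counts. The direction of Cdc6 over Cdt1 on this measure, like the ratio of Rpa1 over Rpa3, depended on the length used.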
